A study of Mus musculus with 18 samples.

Results

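The genes described here encode the proteins of the cytosolic ribosome. A gene was taken when its name began with Rpl or Rps followed by a digit, or was Rplp0, Rplp1, Rplp2 or Rpsa, and names of the Rps6 kinases and names ending in -ps were left out. This gave 86 of the 20207 genes listed for every library: 77 core proteins of the ribosome, 7 paralogues of core proteins, and Rpl7l1 and Rps19bp1, which match by name but are not proteins of the mature ribosome. By name, 51 belong to the large subunit and 33 to the small subunit. The rule itself uses names only and no measured value, though it was set with earlier results of these data known.

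A ribosome joins a small subunit, which reads the mRNA, to a large subunit, which forms the peptide bonds. Each subunit holds rRNA and a fixed set of proteins, most of them encoded by a single active gene in mammals. Their mRNAs are short, very abundant in growing fibroblasts and begin with a terminal oligopyrimidine (TOP) tract, a run of C and T at the transcription start through which growth signals and stress set how well they are translated. The mouse genome also holds many processed pseudogenes of these genes, copies of the spliced mRNA that can be nearly identical to it.

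Poly(A) RNA was sequenced from NIH3T3 cells, a mouse fibroblast line, that stably express DD-sfGFP, a destabilizing domain fused to superfolder GFP. All groups carry this protein, as a sorted population of GFP-positive cells, and were kept with Shield-1, the ligand that lets it fold, according to the study's methods. The cells were unstressed (control, time 0 min), exposed to heat stress (HS) for 45 or 135 min, or treated with tunicamycin (Tun), which blocks N-linked glycosylation in the endoplasmic reticulum, for 45, 135 or 405 min, with 3 samples in each of the 6 groups. The only control is at time 0, so time in culture and stress cannot be told apart. The labels do not say whether samples of a group were separate cultures, so p-values measure the spread between these samples, which may be technical.

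Libraries held 33415592 to 66478268 reads on genes, and 3 reads corresponded to 0.0451 to 0.0898 CPM (read counts scaled to a common library size). Fibroblast markers were abundant, with median RPKM (reads scaled to gene length and library depth) of 2026 for Col1a1 and 2515 for Vim, and Epcam and Ptprc, markers of epithelial cells and leukocytes, had a median of 0. Replicates of a group were unequal in likeness. In 4 libraries, HS 45 min replicates 1 and 2, HS 135 min replicate 2 and Tun 135 min replicate 1, between 8 and 17 of the 84 tested ribosomal protein genes lay under 0.25 times their own median over the 18 libraries, against 0 or 1 in each of the other 14. Of 8105 other genes with a median of at least 10 CPM, 2.53% to 6.08% were that low in the 3 HS libraries of these and 0.802% in Tun 135 min replicate 1, while the 3 Tun 405 min libraries had 0.74% to 1.12% and the others at most 0.16%. Tun 135 min replicate 1 thus lay within the range of the Tun 405 min libraries in these other genes. Control replicate 1 also stood apart from control replicates 2 and 3, with a correlation of log2 levels over 82 ribosomal protein genes of 0.962 and 0.960, against 0.996 between the latter. Values with and without these libraries are given where a result rests on them.

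Sequences of the transcription start are shown first because the TOP tract is described there. The genes printed were chosen for having a run of C and T at or near the start. RefSeq windows on GRCm38.p6 were at hand for 64 of the 86 members. Each line gives 30 bases of the coding strand from 10 bases before to 20 bases from the annotated start on, with the C and T run at or near the start in capitals. The runs printed for Rpl13a and Rps26 begin after the annotated start and hold fewer than 6 bases within 5 bases of it. The first 5 genes were called higher at Tun 405 min, and the last 3 were not called there.
Rpl13a (chr7:45128726-45128755, minus strand): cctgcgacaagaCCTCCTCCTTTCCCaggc
Rpl14 (chr9:120571507-120571536, plus strand): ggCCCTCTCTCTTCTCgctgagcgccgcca
Rpl35 (chr2:39005112-39005141, minus strand): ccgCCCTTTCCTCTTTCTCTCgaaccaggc
Rps18 (chr17:33955646-33955675, minus strand): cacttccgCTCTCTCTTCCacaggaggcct
Rps26 (chr10:128626487-128626516, minus strand): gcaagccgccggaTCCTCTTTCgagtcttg
Rps6 (chr4:86857348-86857377, minus strand): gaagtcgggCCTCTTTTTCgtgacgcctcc
Rps10 (chr17:27635225-27635254, minus strand): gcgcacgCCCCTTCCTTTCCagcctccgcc
Rpl15 (chr14:18270967-18270996, minus strand): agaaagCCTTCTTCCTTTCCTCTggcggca
A run of at least 8 consecutive C or T within 50 bases of the start stood in 53 of the 64 members (82.8%), against 39.3% of the 27025 genes with a window. A run of at least 6 within 5 bases of the annotated start, nearer to where a TOP tract lies, stood in 19 of the 64 (29.7%), against 8.48% of all genes. The longer run stood in 18 of 22 members called higher at Tun 405 min (81.8%) and in 34 of 40 tested members not called higher (85.0%), so the shares were close. The letters CCGGAAG on either strand, the core of sites bound by ETS family factors, stood in the 300-base window of 25 of 64 members (39.1%), against 9.93% of all genes. These are matches of letters only.

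In the control, members held 58 of the 100 and 8 of the 10 highest RPKM values. The median RPKM of the 77 core members was 1193, and 45 of them had at least 1000. The highest were Rplp1, a protein of the stalk that recruits translation factors, at 8763 ± 3479 (SD, n = 3), Rpl41, the smallest protein of the ribosome, at 8283 ± 202, Rps28 at 5863 ± 1083, Rps12 at 4878 ± 391, and Rplp0, the base of the stalk, at 4318 ± 728. In this order the control libraries of each gene overlapped those of the next, except that Rpl41 lay above Rps28 in all 3.

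At the other end, 6 core members had under 15 RPKM in the control although each is a protein of every ribosome. Among them were Rps16 (3.31), Rps23 (5.01), Rpl27 (7.15), Rpl26 (10.8) and Rpl30 (12.8). Only 1 other core member, Rps15a at 73.3, was under 100, and its RPKM divides by a length of about 5135 bases, that of a long transcript model. To describe shared sequence, each of 85 member transcripts was split into words of 32 bases, and words found in the mm9 genome outside the gene itself were counted. The median member had 72.9% of its words elsewhere, and 12 had no other place that held at least 25% of its words. Of these, Rps20 was scanned as a transcript of 3706 bases, where the length behind its RPKM is about 502. Its share of 13.4% (494 words) may therefore not hold for the shorter mRNA. Rps15a (9.36%) was scanned as its long model. Among the low members the share was 60.6% for Rpl27, 69.0% for Rpl30, 81.7% for Rps16, 86.5% for Rpl26 and 92.4% for Rps23. The plot of control RPKM against shared words shows them apart from the rest at the same shares. Other members with as much shared sequence were high, such as Rps12, with 98.2% of its words elsewhere and 19 copies, and Rps27, with 99.7%. Over 82 members the rank correlation of RPKM with the share of shared words was 0.27, a description over genes counted in the same libraries. How reads that match several places were counted is not given in the sources used here, so the part of shared sequence in the low values was not tested.

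**Figure D1:**
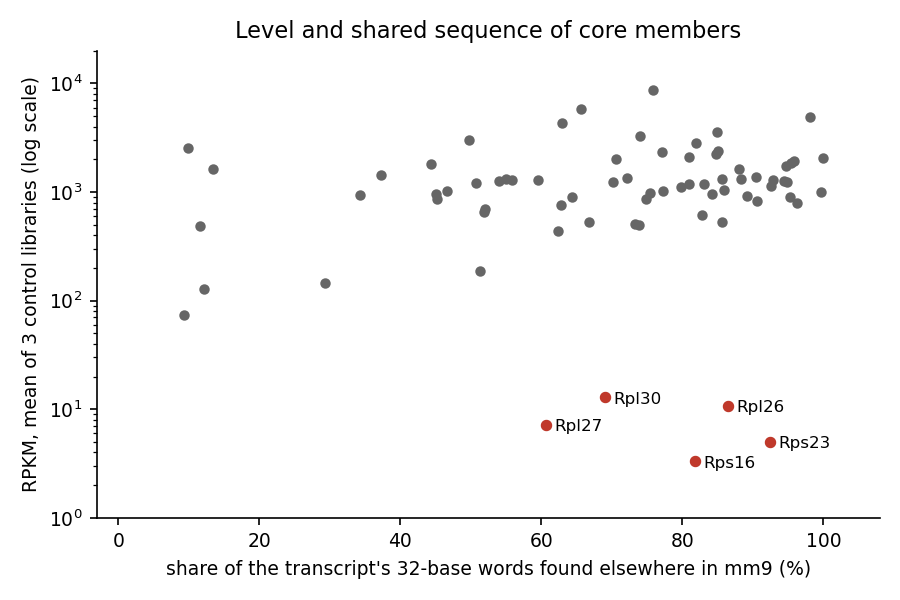
Mean RPKM of core members in the 3 control libraries (log scale) against the share of their transcript's 32-base words that also stand elsewhere in mm9, 1 point per gene. The 5 labelled genes lie between 3.31 and 12.8 RPKM at shares of 60.6% to 92.4%, where other genes lie at 100 RPKM or more.

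For 2 of the low genes the whole coding sequence has an identical copy elsewhere, and its first 60 bases are shown, with the start codon in capitals. That of Rps16 (chr7:29135708-29137717 of mm9), 441 bases long, also stands on the minus strand of chromosome 5, in the annotated pseudogene Rps16-ps2 within the span of Gpr133, where these 60 bases are chr5:129634333-129634392. That of Rps23 (chr13:91062727-91064337), 432 bases long, stands on the plus strand of chromosome 3, where its first 60 bases are chr3:37613662-37613721. They overlap both Gm5148, annotated as protein-coding, and Gm15450, annotated as a pseudogene.
Rps16: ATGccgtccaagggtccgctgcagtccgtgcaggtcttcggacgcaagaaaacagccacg
Rps23: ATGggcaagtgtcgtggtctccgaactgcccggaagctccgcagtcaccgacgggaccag
A read from these bases cannot be placed by sequence alone. The counts of these 2 genes, 1.41 to 3.57 CPM for Rps16 and 2.71 to 4.05 CPM for Rps23 in the control, are therefore uncertain as measures of their mRNA.

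Of 7 pairs of a core member and a related gene, the core member was higher in RPKM in each pair in the control. The pairs include Rpl7l1, which is not among the 7 paralogues counted above, and leave out the paralogue Rps4y2. Rps27 had 991 ± 188 RPKM and Rps27l, a p53-responsive paralogue, 100 ± 39.6. Rpl22 had 127 ± 51.8 and Rpl22l1 0.736 ± 0.942. Rpl36a had 1299 ± 285 and Rpl36al 290 ± 112, Rpl7 1033 ± 369 and Rpl7l1, a protein of ribosome assembly, 44.3 ± 9.65. Rpl39 had 189 ± 138 and Rpl39l, best known from the testis, 74.2 ± 29.8, a pair whose values overlapped. Rpl3l, the form of striated muscle, had between 0 and 7 reads in each library and Rpl10l, the form of the male germline, between 0 and 2. These 2 were not tested, since a test needed at least 1 read in all 18 libraries, and the other 84 members were. No change in them could be detected at this depth.

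As a first measure of the group, the share of a library's reads on the 86 members was taken. It was 8.87% to 10.5% in the 3 control libraries, with a mean of 9.79% ± 0.833 (SD, n = 3). At 45 and 135 min of HS it lay between 8.32% and 8.52% and between 7.86% and 8.89%. Under tunicamycin it was 8.36% to 8.62% at 45 min and 7.04% to 8.20% at 135 min, and then 11.7%, 13.4% and 14.2% at 405 min. Tun 405 min lay above all other libraries, and HS 45 min, Tun 45 min and Tun 135 min lay below all control libraries. Every group that did not overlap the control reached the smallest p that 3 against 3 samples allow in a two-sided exact permutation test (p = 0.1, adjusted p = 0.125 over 5 comparisons), and HS 135 min, which overlapped it, had p = 0.2 (adjusted p = 0.2). Control replicate 1 was the lowest of its group. A share can move because members or because other genes change.

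**Figure D2:**
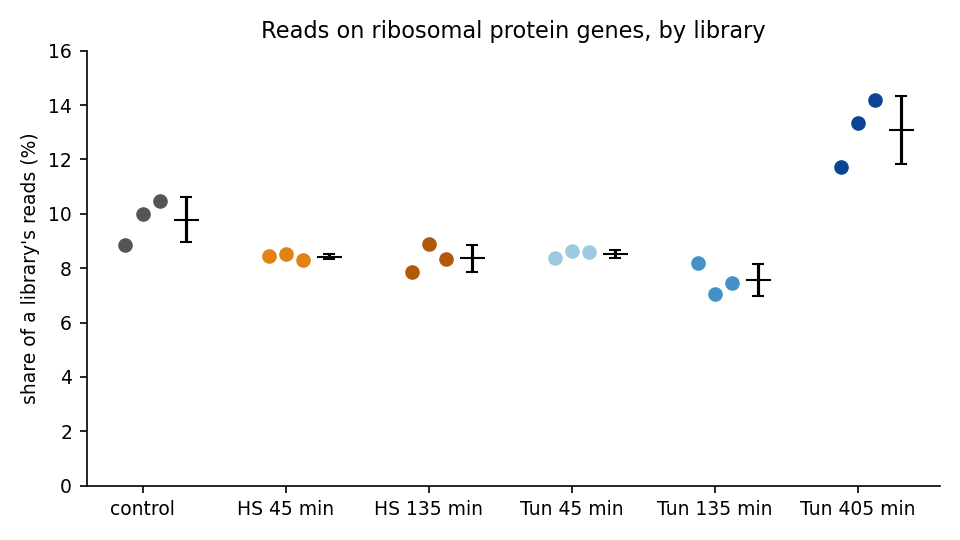
Share of each library's reads that fell on the 86 ribosomal protein genes (percent), with the 3 libraries of a group as points and their mean ± SD beside them. The 3 Tun 405 min libraries sit between 11.7% and 14.2%, above all others, and Tun 135 min sits lowest, between 7.04% and 8.20%.

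At 405 min of tunicamycin most ribosomal protein mRNAs were above the control. Of 84 tested members, 32 rose and 1 fell at an adjusted p under 0.05 (quasi-likelihood test of edgeR, adjusted by Benjamini-Hochberg over 12731 genes), or 38.1% and 1.19% of members, where 23.3% of all tested genes rose and 23.5% fell. The median log2 fold change was 0.49, and -0.01 over all tested genes, and 74 of 84 members lay above 0. Both subunits took part, with 17 of 49 large subunit and 14 of 33 small subunit genes called higher and medians of 0.51 and 0.46. None of the 4 libraries named above enters this comparison. Without Tun 405 min replicate 3, the highest library of its group by share of reads, 15 members were called higher, and without replicate 2 of that group 16. Without control replicate 1, 45 were called higher and 5 lower. What share of all tested genes these refits called is not given here, so the counts are not set against a background.

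The largest rise was that of Rps26, a protein at the exit channel of the mRNA. It had 506, 921 and 678 CPM in the control and 1104, 1552 and 1988 at Tun 405 min, a log2 fold change of 1.17 (standard error, SE, 0.27, adjusted p = 0.00891, edgeR). Each treated library lay above each control library. Rps20, a protein of the small subunit's head, had 587, 1062 and 1174 CPM against 1567, 2125 and 2424, a log2 fold change of 1.14 (SE 0.28, adjusted p = 0.0102, edgeR), again with no overlap. Rpl13 went from 1215, 1637 and 1582 CPM to 2110, 3538 and 3665, a log2 fold change of 1.10 (SE 0.24, adjusted p = 0.00628, edgeR). Rpl13a, which also acts outside the ribosome to silence inflammatory mRNAs, had 904, 1174 and 1310 CPM in the control and 1925, 2542 and 2544 at Tun 405 min. Its log2 fold change of 1.07 (SE 0.19) had an adjusted p of 0.00247 (edgeR). Rpl29 had a similar log2 fold change, 1.06, with a wider SE of 0.35 (adjusted p = 0.0362, edgeR), because its control libraries spread from 435 to 1167 CPM. In all 5 genes the treated libraries lay above the control libraries.

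Members with known roles of their own moved unequally. Rps3, a protein at the mRNA entry that also takes part in DNA repair, had the smallest spread between replicates of all members. It held 1024, 1033 and 1135 CPM in the control and 1364, 1488 and 1545 at Tun 405 min, a log2 fold change of 0.48 (SE 0.13, adjusted p = 0.0163, edgeR). Rps19, the gene most often mutated in Diamond-Blackfan anaemia, rose by a log2 fold change of 0.86 (SE 0.19, adjusted p = 0.0067, edgeR), Rpl10, which joins the subunit late in its assembly, by 0.69 (SE 0.18, adjusted p = 0.0125, edgeR), Rpl23, by 0.79 (SE 0.28, adjusted p = 0.0482, edgeR), and Rpsa, also known as the laminin receptor, by 0.59 (SE 0.18, adjusted p = 0.0248, edgeR). The stalk proteins did not pass the test, with log2 fold changes of 0.40 for Rplp0, 0.11 for Rplp1 and 0.26 for Rplp2 and adjusted p-values of 0.108, 0.783 and 0.349 (edgeR). Control replicate 1 held 7296 CPM of Rplp1 against 3641 and 3612 in the others. Of the 2 proteins that form the 5S particle and bind Mdm2 when free, Rpl11 had a log2 fold change of 0.71 (adjusted p = 0.0541) and Rpl5 0.07 (adjusted p = 0.766, edgeR). Rps6, the target of the S6 kinases, had 0.07 (adjusted p = 0.815), Rpl3, next to the catalytic centre, 0.27 (adjusted p = 0.182), Rps14 0.25 (adjusted p = 0.303), and Rps27a, made as a fusion with ubiquitin, 0.50 (adjusted p = 0.234, edgeR). That these genes did not pass does not show that they did not change.

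**Figure D3:**
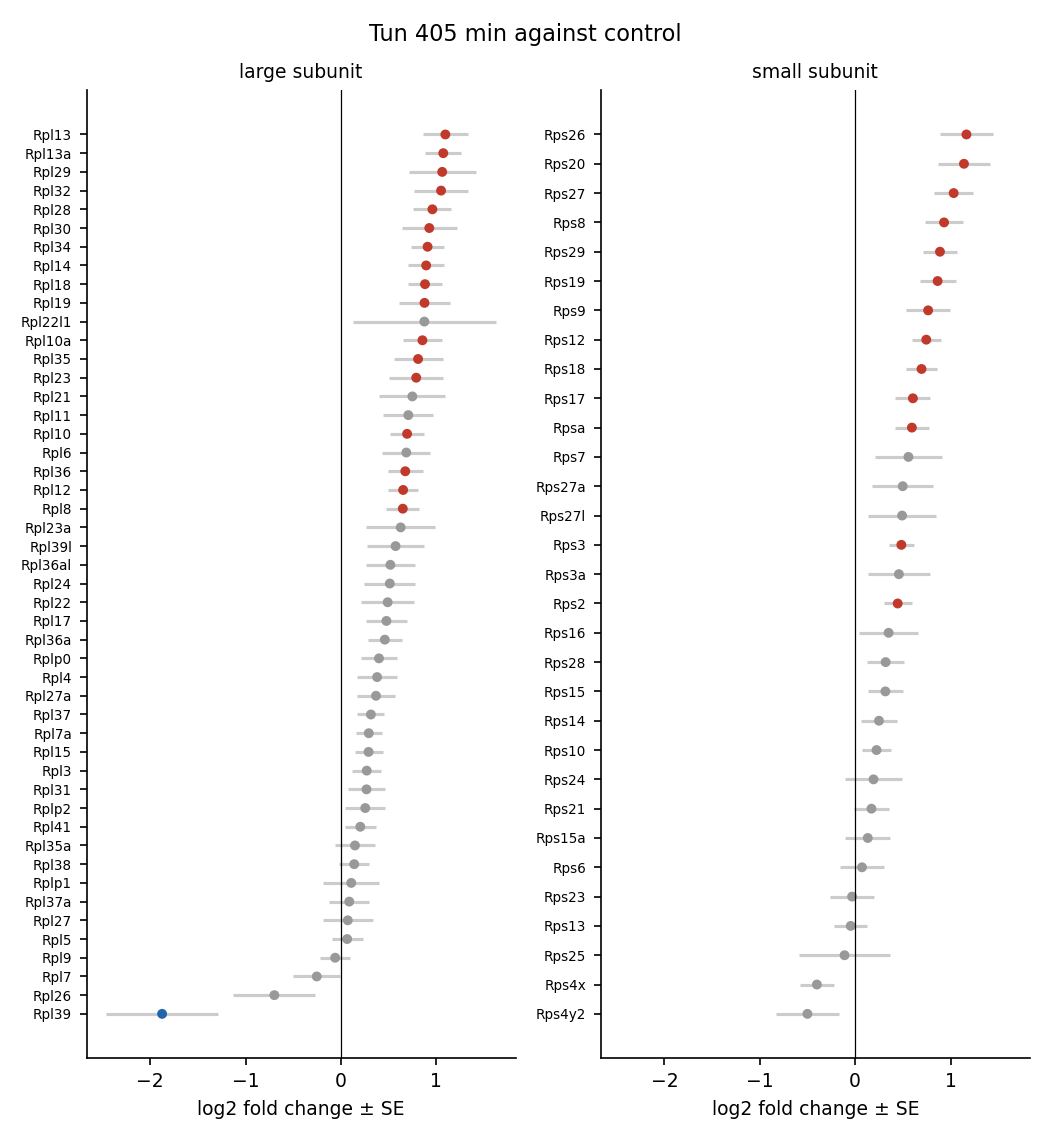
Log2 fold change at Tun 405 min against the control with its standard error for tested genes of each subunit, sorted by size, 3 libraries in each group. Red points were called higher, the blue point (Rpl39) lower and grey points were not called. Most genes of both subunits lie to the right of 0.

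The single member called lower was Rpl39, a small protein that lines the peptide exit tunnel. It had 17.7, 103 and 137 CPM in the control and 20.8, 24.6 and 23.6 at Tun 405 min, a log2 fold change of -1.87 (SE 0.59, adjusted p = 0.0299, edgeR). Control replicate 1 lay below all 3 treated libraries, so the groups overlapped. The call was lost with the replicate number as a block (adjusted p = 0.0752) and whenever any library other than control replicate 1 was left out. Rpl39 was also among the 5 largest falls in each other comparison with the control, without passing the test, and since all share these 3 control libraries they are not independent. The other members at the low end were Rpl26 (-0.70), Rps4y2 (-0.50), Rps4x (-0.40) and Rpl7 (-0.25), none of which passed the test.

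At Tun 135 min most members lay below the control, but none passed the test. No member was called in either direction (edgeR), where 0.126% of all tested genes rose and 0.00785% fell, while at an unadjusted p under 0.05, 0 members were higher and 27 lower, where 10.1% of all tested genes were higher and 8.49% lower. The median log2 fold change was -0.48, and 72 of 84 members lay below 0. DESeq2 called 12 members lower, where it called 2.64% of all tested genes lower. The largest falls in value were Rpl39 (-2.58), Rpl26 (-1.86), Rps15a (-1.78), Rpl35a (-1.28) and Rps25 (-1.20), and the largest rises Rps26 (0.47), Rpl29 (0.40), Rpl28 (0.30), Rpl30 (0.28) and Rpl23a (0.19). Of the first 5, Rps15a and Rpl35a lay below the control in every library. Tun 135 min replicate 1 held 27.8 CPM of Rps15a against 176 and 170 in replicates 2 and 3.

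Set against each other, the later tunicamycin time was above the earlier one. Of 84 members, 58 were higher at Tun 405 min than at Tun 135 min and 0 lower (edgeR), 69.0% of members, where 21.4% of all tested genes were higher and 22.4% lower. All 84 log2 fold changes were above 0, with a median of 0.94, against -0.01 for all tested genes. Rpl12, one of the 5 members of smallest spread, had 1268, 1396 and 1320 CPM at 135 min and 3062, 3423 and 4005 at 405 min, a log2 fold change of 1.38 (SE 0.16, adjusted p = 0.000589, edgeR). The stalk proteins passed here, with log2 fold changes of 0.87 for Rplp0, 0.98 for Rplp1 and 1.35 for Rplp2 (adjusted p = 0.014, 0.0212 and 0.01, edgeR). So did Rps6, at 0.83 (adjusted p = 0.0108), Rpl5, at 0.95 (adjusted p = 0.0365), and Rps27a, at 1.53 (adjusted p = 0.00121, edgeR). Rps26, the largest rise against the control, had 0.67 (adjusted p = 0.0588), its level at 135 min being 759, 1082 and 1033 CPM. Without Tun 135 min replicate 1, 79 members were higher, and without Tun 405 min replicates 3 or 2, 34 and 36. These 3 counts stand without the share of all tested genes called, which is not given here.

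At Tun 45 min, 3 members fell and 0 rose (edgeR), or 3.57% of members, where 2.17% of all tested genes fell and 4.01% rose. The median log2 fold change was -0.27, and 71 of 84 members lay below 0. Rps13 had 731, 516 and 651 CPM in the control and 350, 334 and 329 at Tun 45 min, a log2 fold change of -0.89 (SE 0.16, adjusted p = 0.0225, edgeR). Rpl9 had 610, 860 and 799 CPM against 417, 436 and 402, a log2 fold change of -0.84 (SE 0.16, adjusted p = 0.0276, edgeR), and Rpl15 had one of -0.62 (SE 0.14, adjusted p = 0.045, edgeR). In these 3, which were named because they were called, the treated libraries lay below the control. The count turned on single libraries. Without control replicate 1, 29 members were called lower, and without control replicate 2, 1. Without control replicate 3 or any Tun 45 min library it was 0. How many of all tested genes these refits called is not given here. The replicate number as a block also left 0, and DESeq2 called 19, where it called 6.84% of all tested genes lower. Of the 5 largest falls in value, Rpl39 (-1.50) and Rpl26 (-1.42) overlapped the control, and Rpl27 (-0.93), Rps4y2 (-0.93) and Rplp1 (-0.92) lay below it without passing the test. The largest rises were small, from 0.24 for Rps26 and 0.18 for Rps20 to 0.14 for Rpl28, 0.12 for Rpl19 and 0.11 for Rpl21, and none passed.

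**Figure D4:**
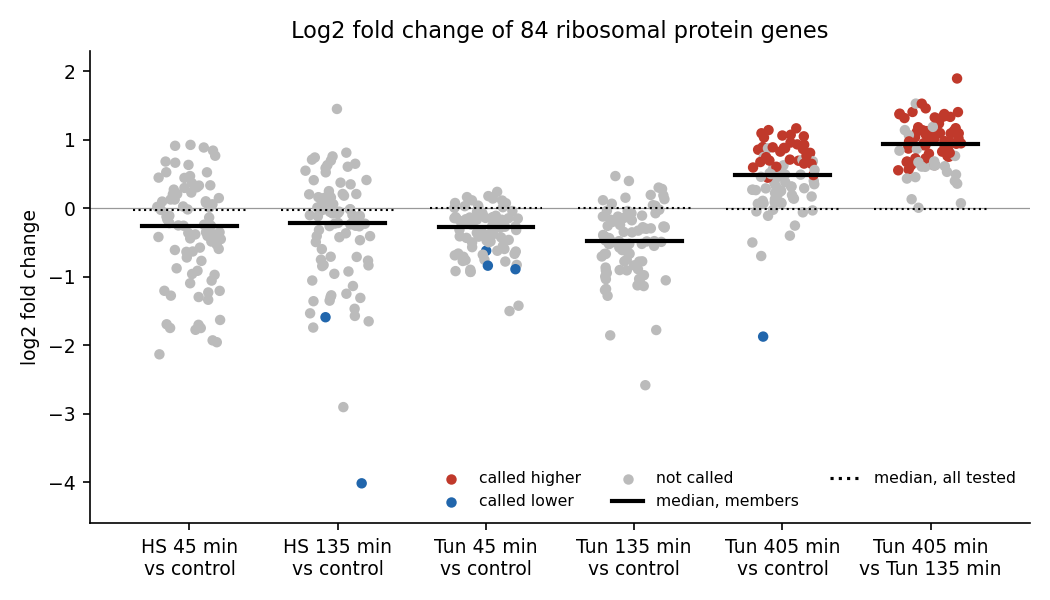
Log2 fold changes of the 84 tested members in the 5 comparisons with the control and in Tun 405 min against Tun 135 min. Each point is a gene, the solid bar is the median of the members and the dotted line that of all 12731 tested genes. The members' median lies between -0.48 and -0.21 in the first 4 comparisons, at 0.49 for Tun 405 min against the control and at 0.94 for Tun 405 min against Tun 135 min.

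Under HS for 135 min, 2 members fell and 0 rose (edgeR), or 2.38% of members, where 2.64% of all tested genes fell and 4.75% rose, so the share was near the background. The median log2 fold change was -0.21, and leaving out 1 library moved it between -0.322 (without control replicate 1) and -0.113 (without control replicate 3). It was -0.143 without control replicate 2, and -0.139 and -0.127 without HS 135 min replicates 1 and 3. Rpl9 had 610, 860 and 799 CPM in the control and 316, 241 and 196 at HS 135 min, a log2 fold change of -1.59 (SE 0.26, adjusted p = 0.0199, edgeR). Rpl26, a protein near the exit of the peptide tunnel that also binds p53 mRNA, had 2.6, 10.9 and 6.8 CPM in the control and 0.6, 0.1 and 0.5 at HS 135 min. Its log2 fold change was -4.02 (SE 0.68, adjusted p = 0.0204, edgeR), from a level that is low for a core protein and shares 86.5% of its words with other places. Both groups were apart in both genes. No member was called lower without HS 135 min replicate 3, control replicate 2 or control replicate 3, and 6 lower and 5 higher without HS 135 min replicate 1. Without HS 135 min replicate 2, the library of this group that stands apart, 3 were lower. As the share of all tested genes called in these refits is not given here, the counts have no background beside them. The other large falls in value were Rpl39 (-2.90, adjusted p = 0.0526), Rps27a (-1.74) and Rps4y2 (-1.65), and the largest rises Rps16 (1.45, adjusted p = 0.101), Rpl27 (0.81), Rpl19 (0.76), Rps23 (0.74) and Rpl21 (0.71, edgeR). Among these rises, Rps16, Rpl27 and Rps23 belong to the 6 core members of lowest RPKM.

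At HS 45 min no member was called in either direction (edgeR), and 0.0% of all tested genes rose and 0.0% fell. At an unadjusted p under 0.05, 2 members were higher and 6 lower, where 12.3% of all tested genes were higher and 7.16% lower, so both counts are at or under the background. DESeq2 called 0 members as well. The median log2 fold change was -0.25. Values ran from -2.13 for Rpl39, -1.96 for Rps4y2, -1.93 for Rps15a, -1.78 for Rpl7 and -1.75 for Rps4x to 0.77 for Rps28, 0.84 for Rps16, 0.89 for Rps20, 0.91 for Rpl28 and 0.93 for Rpl36. All 10 overlapped the control. Rpl36, for example, had 1712 and 2609 CPM in HS 45 min replicates 1 and 2 and 690 in replicate 3, against 783, 889 and 966 in the control. Without HS 45 min replicate 3, which leaves the 2 libraries that stand apart, 9 members were called higher and 24 lower. The share of all tested genes called in that refit is not given here, so these counts are not set against a background. With replicate 3 as the only HS 45 min library the members' median log2 fold change was -0.203, in a fit that takes the lone library to vary like the control. Between HS 135 min and HS 45 min no member was called (edgeR), with 0.0% of all tested genes higher and 0.0% lower. Between HS 135 min and Tun 135 min none was called either, where 1.3% of all tested genes were higher and 0.817% lower. At an unadjusted p under 0.05, the first of these had 1 member higher and 5 lower, where 5.17% of all tested genes were higher and 6.46% lower. The second had 7 and 4, where 10.2% and 9.75% of all tested genes were, so neither count stands above the background.

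The spread between replicates was wider in members than in other genes. The median SD of log2 CPM within groups was 0.40 for the 84 members, 0.30 for 75 mitochondrial ribosomal proteins and 0.28 for all tested genes. In each of the 6 groups the members' median exceeded that of all tested genes, and it ran from 0.19 at Tun 45 min and Tun 405 min to 0.47 at HS 135 min. Among the most stable members were Rps3 (0.0757), Rpl12 (0.132), Rpl3 (0.168) and Rpl14 (0.189), and the least stable Rps27 (1.93), Rps4y2 (1.77), Rps25 (1.74), Rps4x (1.70) and Rpl7 (1.60). Without the 4 libraries that stand apart, no member had an SD over 1, where 12 had one with them. Rps27 then had 0.335 and the members' median was 0.322. Because these libraries were picked for their low members, a smaller spread without them follows in part from the choice. The spread of all tested genes without them is not given here, so 0.322 has no background beside it.

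Rps27 had 8.4 and 13.7 CPM in HS 45 min replicates 1 and 2 and 492 in replicate 3. It had 12.9 CPM in HS 135 min replicate 2 against 306 and 159 in replicates 1 and 3. At Tun 135 min it had 24.1 CPM in replicate 1 and 462 and 546 in replicates 2 and 3. The other libraries held from 294 to 987 CPM. Together, 10 members were under 0.25 times their median in at least 3 libraries, among them Rpl7, Rpl26, Rps4x, Rps4y2, Rps15a, Rps24, Rps25, Rps27 and Rps27a, a list made after the values were seen. Rps4x had 24.3 to 52.0 CPM in the 4 libraries and 121 to 966 in the other 14, and Rps24 38.8 to 148 against 432 to 1095. In 8 of the 10 every one of the 4 libraries lay below each of the other 14, the exceptions being Rpl26 and Rps27a, and the median of the 4 was 7.14 to 57.2 times lower over the 10 genes. Other members went up in the same libraries, as Rps28 did with 4158 and 5363 CPM in HS 45 min replicates 1 and 2 and 1924 in replicate 3.

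**Figure D5:**
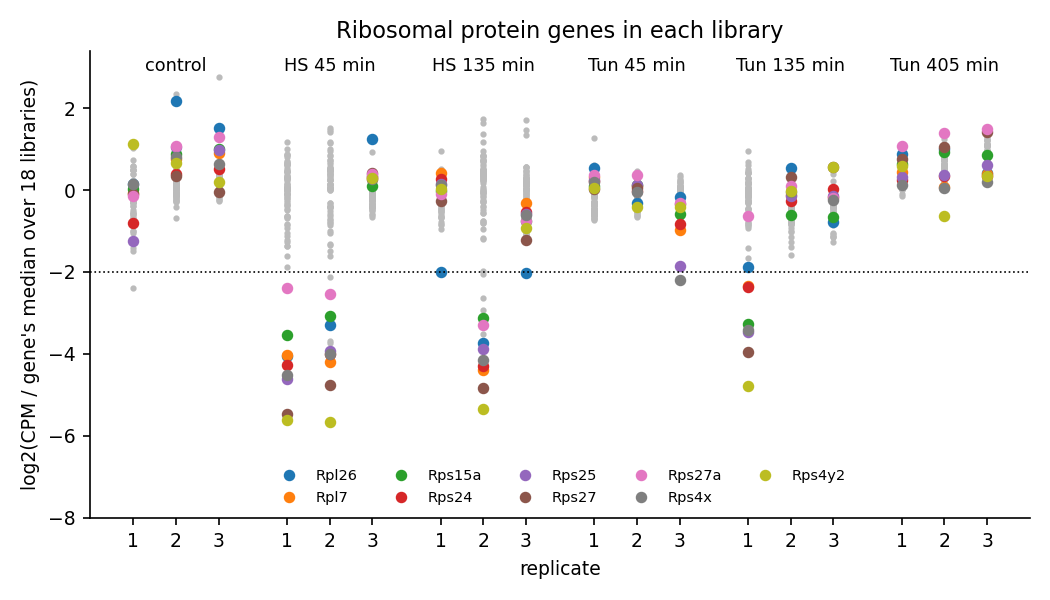
Level of tested ribosomal protein genes in each library as the log2 of its CPM over the gene's own median across the 18 libraries (0.05 CPM added to each), in replicate order within each group. Colours mark 9 of the 10 genes under 0.25 times their median (dotted line) in at least 3 libraries, and grey dots other tested members. All 9 coloured genes lie below the dotted line in HS 45 min replicates 1 and 2 and HS 135 min replicate 2, and in Tun 135 min replicate 1 all but Rpl26 and Rps27a do.

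What the 10 genes share was described without a test. Their transcripts had a median GC content of 48.9% (range 45.3% to 59.1%), against 51.9% (41.3% to 62.4%) for the other 74. The lowest value of each range, of Rps15a and Rps20, came from a long transcript model. The median share of words found elsewhere was 68.0% in the 10 genes against 73.9%, so shared sequence was no more common in them, and over 82 members the rank correlation of spread with that share was 0.04. Of the 10, 8 belong to the small subunit and 2 to the large subunit. Across 83 members, the rank correlation of a library's deviation from its group mean with transcript GC ran from -0.51 in HS 135 min replicate 1 to 0.47 in Tun 45 min replicate 3. In the 4 libraries that stand apart it was 0.20, 0.43, 0.45 and 0.38. Libraries that do not had values as large, such as 0.44 and -0.44 in control replicates 1 and 3. The 3 deviations of a group are taken from their own mean, so they are not independent. Over 12443 tested genes, log2 fold change against the control was also set against transcript GC. The rank correlation was 0.551 at HS 45 min, 0.387 at HS 135 min and 0.351 at Tun 135 min, the groups that hold the 4 libraries. It was 0.0573 at Tun 45 min and 0.122 at Tun 405 min. The library kits used by the study were of more than 1 kind, and the labels do not tie a kit to a library, so the part of the kit or of GC content was not tested.

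Related genes were set beside the members. The proteins of the ribosome that the name rule leaves out include Fau, a fusion with a ubiquitin-like protein, and Gnb2l1, the scaffold RACK1. At Tun 405 min Fau rose by a log2 fold change of 0.76 (adjusted p = 0.0129), and Gnb2l1 had 0.43 (adjusted p = 0.0671, edgeR). Neither passed the test at HS 135 min. Of 18 tested genes with other TOP mRNAs, mostly translation factors, 0 rose and 2 fell at Tun 405 min, Eif4a2, an RNA helicase of initiation (-0.79, adjusted p = 0.00763), and Eif3l (-0.49, adjusted p = 0.0194, edgeR), and Eef1a1, the elongation factor, had -0.55 (adjusted p = 0.0513). Of all tested genes, 23.3% rose and 23.5% fell there. The median of the 18 was -0.04, against 0.49 for the members. Against Tun 135 min, 8 of the 18 were higher and 0 lower, where 21.4% of all tested genes were higher and 22.4% lower. The median of the 18 was 0.45. At HS 135 min 1 of the 18 fell, Eif3f (-1.32, adjusted p = 0.0316, edgeR), where 2.64% of all tested genes fell. Eif3e had -2.30 there (adjusted p = 0.0597) and Nap1l1 -1.11 (adjusted p = 0.113, edgeR). Some of the 18 were also low in the libraries that stand apart, HS 135 min replicate 2 among them. In these libraries Eef1a1 had 380 to 1185 CPM against 3777 to 9995 in the others, and Npm1 86.6 to 200 against 425 to 1151. Others of the 18 were not low in them, such as Eef1g, with 2287 to 3163 CPM against 1341 to 2726. Eif3e had 5.81 CPM in HS 135 min replicate 2 and 25.9 and 18.2 in replicates 1 and 3.

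Mitochondrial ribosomal proteins, which are also encoded in the nucleus by short mRNAs, were set beside them in the same way. At Tun 405 min 35 of 75 rose (46.7%) and 2 fell (2.67%), where 23.3% of all tested genes rose and 23.5% fell. The share that rose was above the 38.1% of the cytosolic members, so a rise was not particular to those. The mitochondrial genes had a median of 0.43, led by Mrps18b (1.45, adjusted p = 5.46e-05), Mrpl21 (1.09, adjusted p = 0.00538) and Mrps31 (1.06, adjusted p = 0.0225, edgeR). At HS 135 min 0 of the 75 rose and 2 fell (2.67%), Mrps24 (-1.33, adjusted p = 0.0173) and Mrps27 (-0.82, adjusted p = 0.0452, edgeR). Of all tested genes, 4.75% rose and 2.64% fell there. The largest values there were those of Mrpl33 (-2.20, adjusted p = 0.0906), Mrpl35 (-1.54, adjusted p = 0.203) and Mrps14 (-1.42, adjusted p = 0.061, edgeR), none of which passed. Among 12 chaperones and import factors of ribosomal proteins, 5 rose (41.7%) and 4 fell (33.3%) at Tun 405 min, against the same shares of all tested genes. Those that rose were Ltv1, which escorts Rps3 (1.69, adjusted p = 0.00144), Pdcd2 (1.202, adjusted p = 0.000783) and Pdcd2l (0.91, adjusted p = 0.00105), partners of Rps2, Tsr2, which holds Rps26 (0.53, adjusted p = 0.00675), and Aamp (0.40, adjusted p = 0.0411, edgeR). Those that fell were the import receptors Ipo7 (-1.25, adjusted p = 0.00896), Ipo5 (-0.70, adjusted p = 0.0072), Kpnb1 (-0.57, adjusted p = 0.0205) and Tnpo1 (-0.52, adjusted p = 0.0211, edgeR). At HS 135 min 0 of the 12 was called, and the largest value was that of Heatr3, at -1.17 (adjusted p = 0.107).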

How the data were processed

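Alignment to mm9 and counting over RefSeq annotation were done by the authors on DNAnexus. The aligner and counter are not given in the sources used here. The authors deposited estimated counts, written with 4 significant digits, and RPKM values made from them. Standardized scores and root-mean-square values were not used. Estimated counts were rounded and fitted per comparison with edgeR 4.0.16 (TMM, quasi-likelihood test) in R 4.3.3, on 12731 genes with at least 1 read in all 18 libraries, with Benjamini-Hochberg adjustment and a threshold of 0.05. Levels are CPM scaled by TMM over all libraries. The floor of 3 reads covers counting error only. Fits were tested on simulated data.

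Members and lists were chosen with earlier results of these data known, and the 4 libraries set apart and the limit of 0.25 times the median after the levels were seen. Genes were named as the 5 largest rises and falls per comparison with the control (mean of at least 50 reads), members with roles of their own, paralogue pairs, the extremes of spread and of control RPKM, untested members, and 3 genes per related list. Other names were chosen after their values were seen. Samples with the same replicate number deviated together only for Tun 135 min against the control (correlations 0.28, 0.23 and 0.19). Their replicate block left 0 members called there. Alternatives were other filters, tests (DESeq2 1.42.0) and normalizations, a shared fit, the replicate block, a GC offset and leaving out libraries. Some genes are not reported here.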

Additional observations from a re-analysis of the deposited data

Results flagged for a closer look

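The difference between 2 times of the same treatment was tested directly. At Tun 405 min, 58 of the 84 tested members were higher than at Tun 135 min (edgeR's quasi-likelihood test, adjusted p under 0.05 over all tested genes), where 21.4% of all tested genes were. Against the control 32 members were higher at 405 min and 0 at 135 min. Of all tested genes, 23.3% and 0.126% were, so few genes of any kind were called higher at 135 min. The control libraries do not enter the direct comparison. Leaving out Tun 135 min replicate 1, which stands apart, gave 79, and leaving out Tun 405 min replicate 2 or 3 gave 36 or 34. Calls among all tested genes in these refits are not given here.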

How the results depend on the processing

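In 138 of 139 refits the members' median log2 fold change moved by less than the SD of the libraries' own medians (0.103 to 0.225). The exception was HS 135 min against Tun 135 min (SD 0.127), where total counts without TMM gave 0.0593 in place of 0.196. That SD is a wide limit, at 0.223 for a median of -0.215 at HS 135 min against the control. It therefore cannot show that the smaller medians were stable. Between HS times the median was 0.0265 and ran from -0.0619 to 0.12 over the refits. For HS 135 min against the control the median ranged from -0.377 with total counts to -0.113 without control replicate 3. With a GC offset it was -0.122. Total counts moved the median of all tested genes by up to -0.19, at HS 45 min. Counts of calls were less stable. For most refits, in this section and above, the share of all tested genes called is not given. Their counts are therefore not set against a background. For HS 45 min a shared fit of all 6 groups called 4 members lower. For HS 135 min the number called lower was 7 with edgeR's exact test, 8 with DESeq2 and with the shared fit, 5 with a GC offset, 0 with the replicate block and 1 with block and GC offset, and 1 was called higher by the exact test, DESeq2, the shared fit, and the block with GC offset. For Tun 45 min 5 were lower with no filter, with filterByExpr and with TMM computed without members, 13 with the exact test, 19 with DESeq2, 17 with a GC offset and 0 with the block. For Tun 135 min 9, 12 and 4 were lower with the exact test, DESeq2 and the shared fit. At Tun 405 min against the control the block called 34 higher and 0 lower, and against Tun 135 min 40 higher. In the other comparisons the block called 0 in each direction. Outside Tun 135 min against the control, samples share only a number. Between HS times 1 member was higher with DESeq2 and the shared fit, and 1, 1 and 2 lower with the exact test, DESeq2 and the shared fit. For HS 135 min against Tun 135 min 1 was higher with no filter and with total counts, 3 with the exact test and DESeq2, 5 with the shared fit and 4 with a GC offset, and 1 lower with DESeq2. Without the libraries low in 8 or more members, a choice made after seeing the data, 2 were lower between HS times, and 8 higher and 2 lower for HS 135 min against Tun 135 min.

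Leaving out 1 replicate gave 0 to 9 higher and 0 to 24 lower at HS 45 min, 0 to 5 and 0 to 6 at HS 135 min, 0 to 29 lower at Tun 45 min, 15 to 45 higher and 0 to 5 lower at Tun 405 min, 34 to 79 higher against Tun 135 min, and 0 to 3 higher for HS 135 min against Tun 135 min. As a share of summed RPKM, the log2 ratio of the members' share to the control was -0.0766 at HS 45 min, -0.102 at Tun 45 min, -0.234 at Tun 135 min and 0.24 at Tun 405 min, against -0.215, -0.199, -0.371 and 0.42 as a share of reads. The cause was not tested. In 17 refits each, none of the 2, 3 and 33 members called at HS 135 min, Tun 45 min and Tun 405 min against the control, or of the 58 against Tun 135 min, changed direction. Rpl22l1, Rpl26, Rps16 and Rps23 had few reads for tested members. The counts of Rps16 and Rps23 are uncertain also because their coding sequence has an identical copy elsewhere.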
